A study of Rattus norvegicus with 6 samples.

Results

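The conjugation and detoxification enzyme families examined here are the UDP-glucuronosyltransferases (Ugt), sulfotransferases (Sult), glutathione S-transferases of the alpha, kappa, mu, omega, pi and theta classes (Gst), microsomal glutathione S-transferases (Mgst), carboxylesterases (Ces), aldehyde dehydrogenases (Aldh), aldo-keto reductases (Akr) and flavin-containing monooxygenases (Fmo). Members were every entry of the peak-bearing gene lists whose symbol, case ignored, began with one of these family names. The rule found 95 entries, each an Ensembl gene ID, of 22427 entries listed in at least 1 library. They carry 90 different symbols in 8 families. Members were chosen by name and not by which library listed them.

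The repressive histone mark H3K27me3 (histone H3 with 3 methyl groups on lysine 27) was mapped by chromatin immunoprecipitation and sequencing in heart muscle cells cultured from newborn Sprague Dawley rats. Cells had been exposed for 24 h to 5 mM α-ketoglutarate (α-KG) or to phosphate-buffered saline (PBS, control), and each group had 2 H3K27me3 libraries, called α-KG 1 and α-KG 2, and control 1 and control 2. The labels name no mutation or transgene, and they do not say whether the 2 libraries of a group came from separate cultures, which limits what any p-value here measures to the spread between these libraries. A further 2 samples, whose labels name IgG as the antibody and input in the title, were not analysed here.

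These enzymes act on drugs, toxins, steroids and reactive aldehydes. Fmo, Ces, Akr and Aldh enzymes oxidise, hydrolyse or reduce a compound, and Ugt, Sult and Gst enzymes attach a glucuronic acid, a sulfate or a glutathione to it, which makes it easier to excrete. Many of the genes are most active in liver, kidney or gut, and many lie in rows of related copies that arose by gene duplication. H3K27me3 is placed by Polycomb repressive complex 2 and removed by demethylases that use α-KG as a cosubstrate, and in mammals the complex is known to favour stretches of DNA rich in CpG, the cytosine-guanine step.

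The values are lists of genes with a peak, with no height, position or read count. A gene was either listed or not listed in a library. Absence from a list may mean that the gene had no mark or that its signal was too weak to be called, and the sequencing depth is unknown. Presence sets few genes apart, since 77.4% of 20972 named protein-coding genes had an entry in at least 1 library. The 4 libraries listed 18120 entries in α-KG 1, 19181 in α-KG 2, 17245 in control 1 and 18442 in control 2. Mixed cell cultures give 1 list per library, so fewer cells with the mark and less mark per cell cannot be told apart. Listing of a repressive mark does not measure expression and cannot check the identity of the cells. Of 15 cardiomyocyte marker genes, 11 had an entry, and 6 of these were listed in all 4 libraries. The 11 numbered 7 in α-KG 1 and 8 in α-KG 2, against 7 in control 1 and 8 in control 2. Of 8 hepatocyte marker genes, 8 had an entry, and 1 was in all 4. They numbered 5 and 5 with α-KG, against 5 and 3 in control cells.

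The promoter sequences of 9 members are given first, as examples of genes with the listing patterns described next. They are the 250 bases before the annotated start of each gene, taken from RefSeq assembly GRCr8, a later assembly than the rn6 build named in the submitters' processing notes. The first set holds members whose listing differed between libraries and, for contrast, Aldh1a2, a member with a CpG-rich promoter that all 4 libraries listed. Sequences run 5′ to 3′ on the strand of the gene, with CpG sites in capitals. Gsto1 (chr1:256662281-256662530, plus strand) and Aldh7a1 (chr18:52240294-52240543, minus strand) were listed in α-KG 2 and in no other library. Ugt2b7 (chr14:21251285-21251534, plus strand) and Aldh1a1 (chr1:227537370-227537619, plus strand) were listed in every library except α-KG 2. Aldh1a2 lies at chr8:80758391-80758640 on the plus strand. Akr1c13 (chr17:70894386-70894635, plus strand) was listed in both α-KG libraries and in neither control. Akr1c2 (chr17:70717881-70718130, minus strand) was in the lists of control 1 and control 2 alone.
Gsto1: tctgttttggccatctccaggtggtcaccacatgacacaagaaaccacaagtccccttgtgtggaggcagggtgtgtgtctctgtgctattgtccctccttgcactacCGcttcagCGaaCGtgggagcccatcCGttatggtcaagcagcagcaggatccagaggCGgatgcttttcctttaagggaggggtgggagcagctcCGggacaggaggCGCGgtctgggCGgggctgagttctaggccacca
Aldh7a1: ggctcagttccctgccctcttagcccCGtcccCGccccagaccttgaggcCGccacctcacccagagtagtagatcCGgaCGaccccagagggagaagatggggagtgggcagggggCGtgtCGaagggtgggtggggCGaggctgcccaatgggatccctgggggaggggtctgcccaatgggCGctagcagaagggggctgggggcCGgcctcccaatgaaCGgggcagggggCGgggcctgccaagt
Ugt2b7: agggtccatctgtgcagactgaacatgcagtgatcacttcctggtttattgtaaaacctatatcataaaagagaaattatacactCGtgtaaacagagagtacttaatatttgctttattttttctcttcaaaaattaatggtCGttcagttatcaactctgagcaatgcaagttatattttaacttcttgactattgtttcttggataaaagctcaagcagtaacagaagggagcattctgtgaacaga
Aldh1a1: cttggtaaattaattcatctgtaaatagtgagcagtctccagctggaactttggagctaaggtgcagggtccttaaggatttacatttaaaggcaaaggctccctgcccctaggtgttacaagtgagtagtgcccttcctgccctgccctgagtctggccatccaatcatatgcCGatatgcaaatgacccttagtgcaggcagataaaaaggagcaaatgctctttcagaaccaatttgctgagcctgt
Aldh1a2: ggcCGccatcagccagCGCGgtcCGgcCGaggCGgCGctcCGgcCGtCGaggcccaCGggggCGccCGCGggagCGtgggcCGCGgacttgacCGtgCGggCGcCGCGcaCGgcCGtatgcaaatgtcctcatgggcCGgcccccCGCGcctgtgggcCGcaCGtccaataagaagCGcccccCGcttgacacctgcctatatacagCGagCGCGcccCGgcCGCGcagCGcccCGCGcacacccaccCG
Akr1c13: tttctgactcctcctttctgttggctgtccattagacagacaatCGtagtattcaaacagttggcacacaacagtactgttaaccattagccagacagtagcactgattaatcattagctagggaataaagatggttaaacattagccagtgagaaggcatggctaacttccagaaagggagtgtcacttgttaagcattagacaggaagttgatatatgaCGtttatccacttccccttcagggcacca
Akr1c2: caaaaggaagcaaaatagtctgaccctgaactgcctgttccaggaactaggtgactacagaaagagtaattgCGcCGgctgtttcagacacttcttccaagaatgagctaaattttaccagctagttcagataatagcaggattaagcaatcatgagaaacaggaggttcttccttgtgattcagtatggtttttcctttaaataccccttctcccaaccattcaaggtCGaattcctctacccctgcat
These stretches hold 9 CpG sites in Gsto1, 12 in Aldh7a1, 2 in Ugt2b7, 1 in Aldh1a1, 41 in Aldh1a2, 2 in Akr1c13 and 3 in Akr1c2. The genes are picked examples, so the counts allow no comparison of CpG content between listing patterns or libraries.

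The second set is a pair of hydroxysteroid sulfotransferase genes, shown because near-identical copies limit what a gene list can say. Sult2a6 (chr1:84097809-84098058, minus strand) was listed in both α-KG libraries and in neither control, whereas Sult2a1 (chr1:84638948-84639197, minus strand) was listed in α-KG 1 and control 1. Capitals mark the longest run of bases that the promoters share.
Sult2a6: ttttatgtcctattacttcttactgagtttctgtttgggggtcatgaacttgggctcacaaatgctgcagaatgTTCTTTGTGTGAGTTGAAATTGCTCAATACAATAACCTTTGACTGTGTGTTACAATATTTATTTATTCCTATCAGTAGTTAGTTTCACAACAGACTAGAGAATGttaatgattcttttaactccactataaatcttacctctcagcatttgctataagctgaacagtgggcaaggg
Sult2a1: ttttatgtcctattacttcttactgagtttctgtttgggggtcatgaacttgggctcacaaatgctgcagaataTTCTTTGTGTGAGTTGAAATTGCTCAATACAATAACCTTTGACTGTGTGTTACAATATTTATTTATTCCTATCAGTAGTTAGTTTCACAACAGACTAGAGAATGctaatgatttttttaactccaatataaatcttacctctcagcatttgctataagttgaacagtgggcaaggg
The shared run is 104 bases long, 245 of the 250 positions are identical, and neither stretch holds a CpG site. Short reads from such copies may be assigned to either gene or discarded, and how the authors treated them is not given in the sources used here.

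Fewer members were listed in the α-KG libraries than in the controls, although the α-KG lists were on average the longer ones. Members numbered 70 in α-KG 1 and 65 in α-KG 2, against 74 in control 1 and 72 in control 2. In percent of the 95 members this is 73.7% and 68.4% with α-KG, against 77.9% and 75.8% in control cells. Each α-KG library listed fewer members than each control library. Members averaged 67.5 ± 3.54 with α-KG and 73.0 ± 1.41 in control cells (SD, n = 2 libraries each), a difference of -5.5 members with an exact two-sided permutation p of 0.333, the smallest p that 2 against 2 libraries allow. Over all entries the averages were 18650.5 ± 750 with α-KG and 17843.5 ± 846 in control cells (SD, n = 2 each; difference 807, exact two-sided permutation p = 0.667). Per 1000 listed entries, members numbered 3.86 in α-KG 1 and 3.39 in α-KG 2, against 4.29 in control 1 and 3.9 in control 2 (exact two-sided permutation p = 0.333). Control 2 and α-KG 1 lay close together on this scale, and α-KG 2, which had the longest list over all genes, had the fewest members. The difference in members was -3 without α-KG 2 and -8 without α-KG 1.

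Members were less widely listed than the other genes in the lists. Of the 95 members, 42 were listed in all 4 libraries (44.2%), while 62.8% of all entries were. A further 20 members were in 3 libraries, 20 in 2 and 13 in 1. Members in exactly 2 libraries made up 21.1% of the family genes and 11.3% of all entries. When α-KG 2 was left out, 54 of 91 members were in the 3 remaining libraries, against 71.6% of all entries. Pairs of libraries also shared fewer members than genes in general. The share of members listed in both libraries out of those listed in either (the Jaccard index) was 0.588 for the α-KG libraries and 0.738 for the controls, against 0.775 and 0.813 over all entries. The lowest index among members, 0.58, was between α-KG 2 and control 1.

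**Figure D1:**
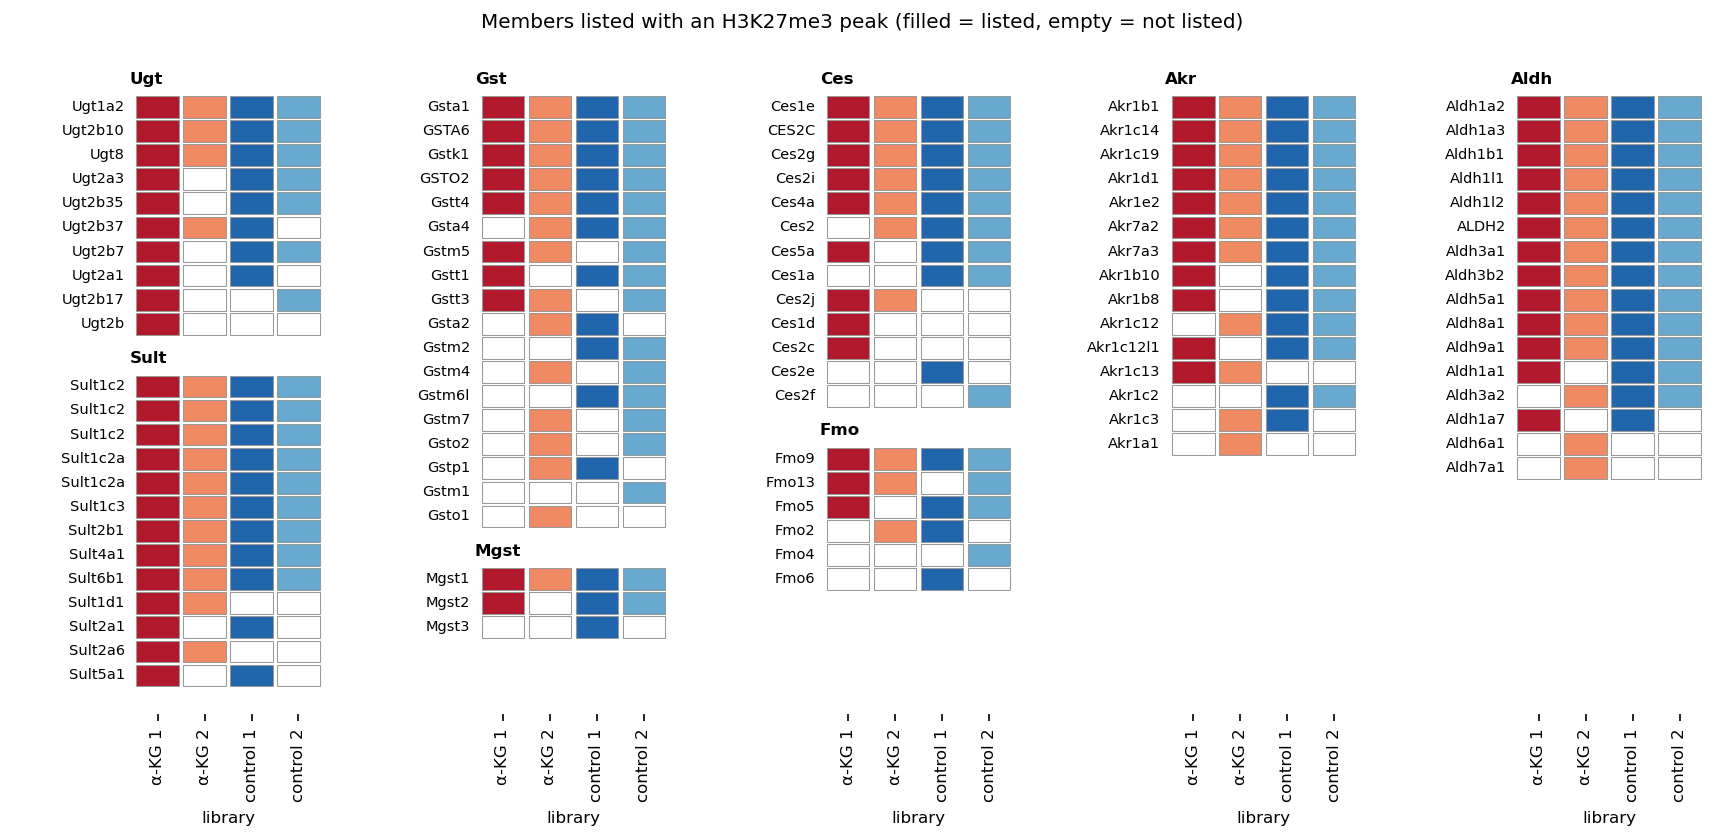
Listing of 94 of the 95 members (1 square per gene and library, filled where the library listed the gene), grouped by family, with α-KG 1 and α-KG 2 before control 1 and control 2. Of these, 42 are filled in all 4 libraries, and the rest are spread over many patterns.

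The families differed in how evenly they were listed. Of the Sult entries 9 of 13 (69.2%) and of the Aldh entries 11 of 16 (68.8%) were in all 4 libraries, shares near the 62.8% of all entries. The Sult entries include 5 under the repeated symbols Sult1c2 and Sult1c2a. Akr (7 of 15), Ces (5 of 13), Ugt (3 of 10), Mgst (1 of 3), Gst (5 of 18) and Fmo (1 of 7) had lower shares, from 14.3% to 46.7%. The α-KG and control libraries did not overlap for 2 families. Akr members numbered 11 and 11 in the α-KG libraries, against 13 and 12 in the controls, and Fmo members numbered 4 and 3, against 5 and 5. These are differences of 1 or 2 genes, and no test was made by family. Over all entries the 2 groups overlapped. Even a complete separation of 2 against 2 libraries reaches an exact two-sided permutation p of 0.333 at best. In the other 6 families the groups overlapped. Ugt members numbered 10 in α-KG 1 and 4 in α-KG 2, against 8 and 7 in the controls, and Gst members numbered 8 in α-KG 1 and 14 in α-KG 2, against 11 and 15. The mean difference between the groups changed sign when 1 library was left out in both families, to 2.5 for Ugt without α-KG 2 and to 1 for Gst without α-KG 1.

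**Figure D2:**
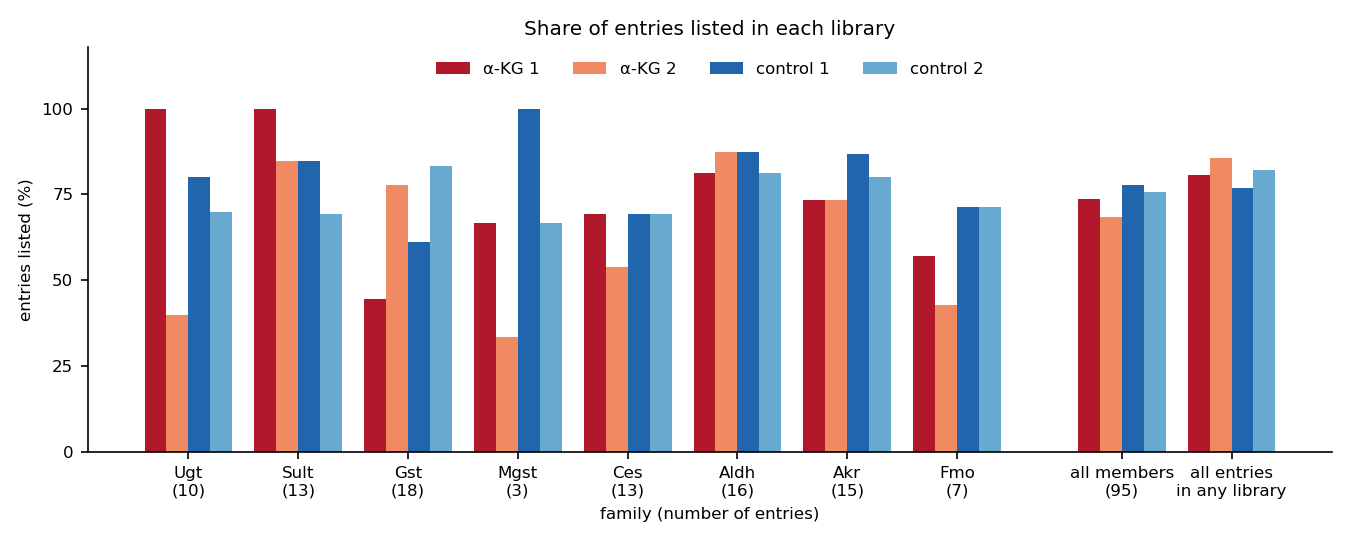
Percent of the members of each family listed in each library (bars start at 0), with all 95 members and all 22427 entries beside them. The tallest contrast between libraries of 1 group is in Ugt, where α-KG 1 listed 10 of 10 and α-KG 2 listed 4.

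Among the oxidising and reducing enzymes, the aldehyde dehydrogenases showed the most stable listing. The retinoic acid-forming enzymes Aldh1a2 and Aldh1a3 were in all 4 libraries. So were Aldh1b1, the folate enzymes Aldh1l1 and Aldh1l2, Aldh2, which oxidises acetaldehyde in mitochondria, Aldh3a1 and Aldh3b2. Aldh5a1, which degrades succinate semialdehyde from the neurotransmitter GABA, Aldh8a1 and Aldh9a1, which acts in carnitine synthesis, completed the 11. Aldh1a1, another retinaldehyde dehydrogenase, was missing from α-KG 2 alone. Aldh3a2, which oxidises fatty aldehydes, was missing from α-KG 1 alone. Aldh1a7 was in α-KG 1 and control 1. The mitochondrial amino acid enzymes Aldh6a1, of valine breakdown, and Aldh7a1, of lysine breakdown, were in α-KG 2 alone.

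Of the 15 aldo-keto reductases, Akr1b1 (aldose reductase), Akr1d1 (steroid 5β-reductase), Akr1e2, the aflatoxin aldehyde reductases Akr7a2 and Akr7a3, and the Akr1c genes Akr1c14 and Akr1c19 were in all 4 libraries. The Akr1c enzymes are hydroxysteroid dehydrogenases. Their 7 genes numbered 4 in α-KG 1 and 5 in α-KG 2, against 6 in control 1 and 5 in control 2. Akr1c2 (ENSRNOG00000029844) was listed in control 1 and control 2 alone, and Akr1c13 (ENSRNOG00000050040) in α-KG 1 and α-KG 2 alone. Genes of the same row of Akr1c copies thus had opposite patterns. Akr1c12 was missing from α-KG 1, Akr1c3 was in α-KG 2 and control 1, and Akr1c12l1 was missing from α-KG 2. Akr1b8 and Akr1b10, relatives of aldose reductase, were also missing from α-KG 2 alone, and Akr1a1 (aldehyde reductase) was in α-KG 2 alone.

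The flavin-containing monooxygenases, which oxygenate nitrogen and sulfur atoms of drugs and amines, had 1 member in all 4 libraries, Fmo9. Fmo5 was in every library but α-KG 2, and Fmo13 was in every library but control 1. Fmo2 was in α-KG 2 and control 1, Fmo6 in control 1 alone and Fmo4 in control 2 alone. Among the carboxylesterases, which cleave ester drugs and lipids, Ces1e, Ces2g, Ces2i, Ces4a and an entry under the symbol CES2C were in all 4. A separate entry under the symbol Ces2c was in α-KG 1 alone, as was Ces1d, a lipase of liver in mouse. Ces2f was in control 2 alone, Ces2e in control 1 alone, Ces2 in all but α-KG 1 and Ces5a in all but α-KG 2. Ces1a (ENSRNOG00000039725) was in both controls and no α-KG library, and Ces2j (ENSRNOG00000029744) showed the opposite pattern.

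The conjugating enzymes ranged from uniform to scattered listing. The 6 Sult1c entries (3 under Sult1c2, 2 under Sult1c2a and Sult1c3) were in all 4 libraries, and so were Sult2b1, which sulfates cholesterol, the brain form Sult4a1, and Sult6b1. Sult2a1 and Sult5a1 were in α-KG 1 and control 1. Sult2a6 (ENSRNOG00000046091) and Sult1d1 (ENSRNOG00000001960), which in mouse sulfates catecholamines, were in the α-KG libraries alone. These were 2 of the 11 Sult entries in both α-KG libraries, while 4.48% of all entries in both were in neither control. The reverse held for 0 of the 9 Sult entries in both controls, against 3.22% of all entries. Such counts are too small to tell from those shares, and Sult2a6 is 1 of the near-identical copies shown above. The 8 Ugt2 genes, whose enzymes glucuronidate steroids and drugs, numbered 8 in α-KG 1 and 2 in α-KG 2, against 6 in control 1 and 5 in control 2. Only Ugt2b10 among them was in all 4. Ugt2a3, Ugt2b35 and Ugt2b7 were missing from α-KG 2 alone and Ugt2b37 from control 2 alone. Ugt2a1 was in α-KG 1 and control 1, Ugt2b17 in α-KG 1 and control 2, and Ugt2b in α-KG 1 alone. The remaining Ugt members, Ugt1a2 and Ugt8, which makes the myelin lipid galactosylceramide, were in all 4.

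Among the glutathione S-transferases, the mu class was the most scattered. Of its 6 genes, 1 was in α-KG 1 and 3 in α-KG 2, against 2 in control 1 and 6 in control 2, and 0 were in all 4. Gstm2 (ENSRNOG00000019094) and Gstm6l (ENSRNOG00000029409) were in both controls and no α-KG library. Gstm4 and Gstm7 were in α-KG 2 and control 2, Gstm1 was in control 2 alone, and Gstm5 was missing from control 1. The alpha-class genes Gsta1 and GSTA6, the mitochondrial and peroxisomal kappa enzyme Gstk1, the theta-class Gstt4 and an entry under GSTO2 were in all 4. Gsta4, which conjugates the lipid peroxidation product 4-hydroxynonenal, was missing from α-KG 1. Gsta2 and the pi-class Gstp1 were in α-KG 2 and control 1, and an entry under Gsto2 was in α-KG 2 and control 2. Gstt1 was missing from α-KG 2 and Gstt3 from control 1. The omega-class Gsto1, which reduces dehydroascorbate, was in α-KG 2 alone. Of the microsomal enzymes, Mgst1 was in all 4, Mgst2, which can make leukotriene C4, in all but α-KG 2, and Mgst3 in control 1 alone.

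The comparison of treatment with control rests on the genes that split by group. Lost with α-KG here means listed in control 1 and control 2 alone, and gained means listed in α-KG 1 and α-KG 2 alone. Of the 62 members in both controls, 4 were lost (6.45%), while 3.22% of all entries in both controls were. The lost members were Akr1c2, Ces1a, Gstm2 and Gstm6l. Of the 50 members in both α-KG libraries, 4 were gained (8.0%), while 4.48% of all entries in both α-KG libraries were. The gained members were Akr1c13, Ces2j, Sult1d1 and Sult2a6. Losses and gains were equal in number, and Akr and Ces each had 1 of both. Splits across the groups also occurred. Control 1 shared 4 members with α-KG 1 alone (4.21%, all entries 1.06%) and 4 with α-KG 2 alone (4.21%, all entries 1.05%). Control 2 shared 3 with α-KG 2 alone (3.16%, all entries 2.4%) and 1 with α-KG 1 alone (1.05%, all entries 1.28%). An excess over all entries was thus not particular to splits by group. No test was made of the lost and gained counts, since genes are not replicates. Such counts of 4 members each are too small to tell from the shares of all entries. The counts depended on single libraries. Without α-KG 1, 16 of 62 members were lost (all entries 8.55%) and 8 of 65 gained (all entries 11.9%). Without α-KG 2, 8 of 62 were lost (all entries 6.72%) and 7 of 70 gained (all entries 6.53%). Without control 1, 7 of 72 were lost (all entries 5.56%) and 5 of 50 gained (all entries 6.81%). Without control 2, 7 of 74 were lost (all entries 5.24%) and 7 of 50 gained (all entries 11.2%). Fewer libraries then have to share a pattern, which by itself raises the counts. The 16 lost without α-KG 1 were the 4 above and 12 members that α-KG 1 also listed.

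The most frequent incomplete pattern among members was absence from α-KG 2 alone. It held 12 members (12.6%), while 3.8% of all entries had it. They span 7 families and include Akr1b10, Akr1b8, Akr1c12l1, Aldh1a1, Ces5a, Fmo5, Gstt1, Mgst2, Ugt2a3, Ugt2b35 and Ugt2b7. The reverse pattern, listing in α-KG 2 alone, held 4 members (4.21%), below the 6.96% of all entries. These were Akr1a1, Aldh6a1, Aldh7a1 and Gsto1. These patterns separate α-KG 2 from the other 3 libraries, α-KG 1 included, so they are differences between libraries and not between treatment and control. The pattern was picked for description after the values were seen, and no test was made of it. Listing in α-KG 2 also varied with promoter CpG content over all listed genes, as given below.

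Many related genes lie in rows. RefSeq (GRCr8) places 93 of the 95 entries, and 64 of them, covering 59 genes, lie in 18 tandem groups, here defined as members of 1 family with at most 10 other RefSeq genes between consecutive ones. Entries in tandem groups were in all 4 libraries in 24 cases (37.5%), against 18 of 29 entries outside them (62.1%). The 64 entries in tandem groups held 4 lost and 3 gained members and 8 that only α-KG 2 lacked, and the 29 placed outside them held 0 lost, 1 gained and 4 that only α-KG 2 lacked. These counts are too small to tell the tandem groups from the other members. Of 15 pairs of members that are immediate neighbours in RefSeq, 1 pair (6.67%) had the same pattern over the 4 libraries, Ugt2b35 and Ugt2b7, and 0 pairs were both in all 4. Of 7003 pairs of neighbouring listed genes, 41.1% had the same pattern and 38.0% were both in all 4. Outside pairs listed everywhere, the shares were 6.67% of member pairs and 5.02% of all pairs, so the lower figure among members goes with their having no neighbouring pair listed everywhere. With at most 1 other gene between them, 5 of 29 member pairs (17.2%) had the same pattern, against 42.9% of all pairs. Of the 18 groups, 4 had the same pattern in every entry, the Sult1c group, Gsta1 with Gsta6, Ces2g with Ces4a and Akr7a2 with Akr7a3, and each of these was in all 4 libraries throughout.

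**Figure D3:**
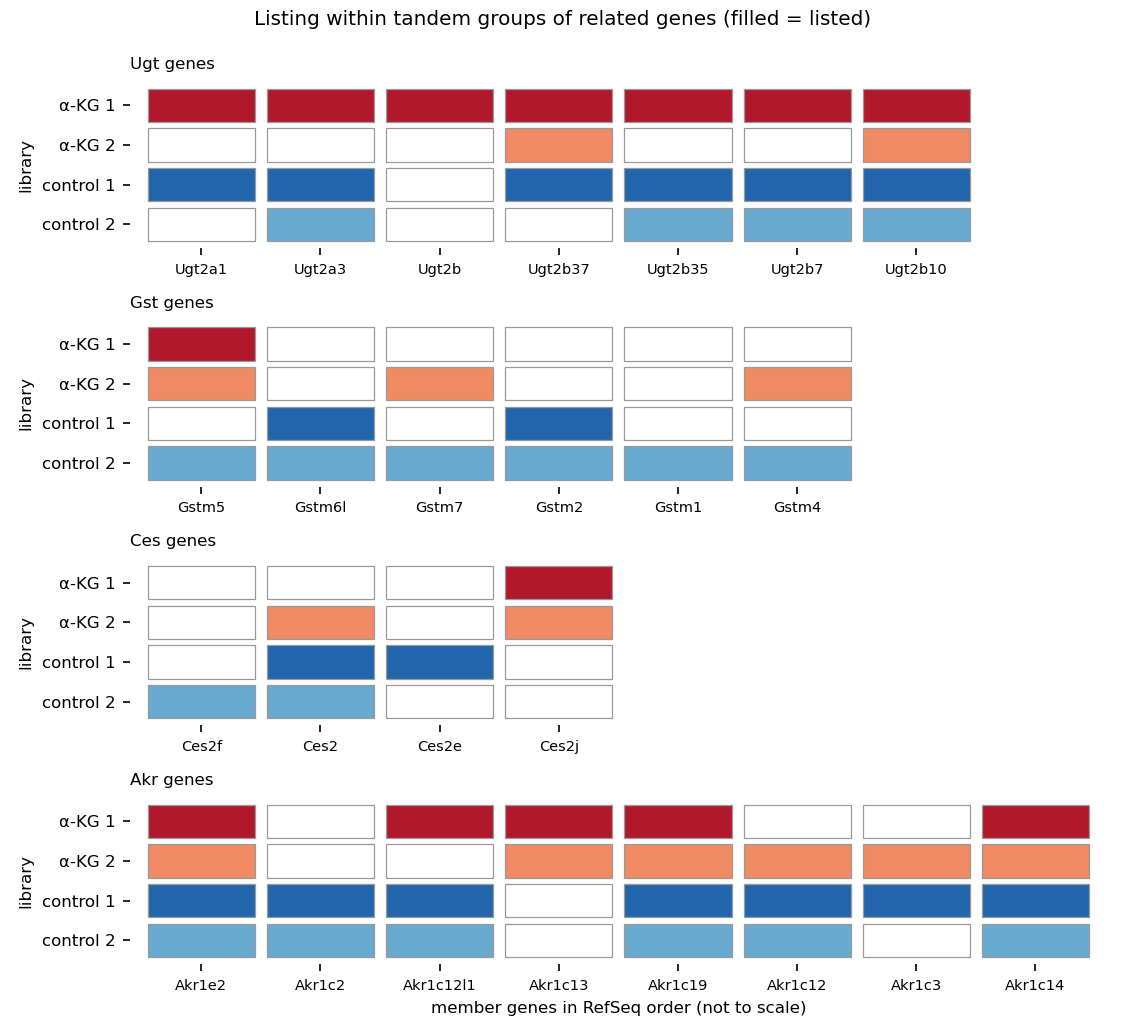
Listing of the members of 4 of the larger tandem groups, in RefSeq gene order (distances not to scale), with 1 row per library and filled squares where the library listed the gene. In the Ugt group α-KG 1 listed 7 of 7 genes and α-KG 2 listed 2, and in the Gst group α-KG 1 listed 1 of 6 and control 2 listed 6.

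The larger tandem groups show the range. In the Ugt2 group of 7 genes, from Ugt2a1 to Ugt2b10, α-KG 1 listed 7 and α-KG 2 listed 2, against 6 in control 1 and 4 in control 2. In the mu-class Gst group of 6 genes, from Gstm5 to Gstm4, the numbers were 1 and 3 with α-KG, against 2 and 6 in control cells. The group of 8 Akr genes, from Akr1e2 to Akr1c14, had 5 and 6 with α-KG, against 7 and 6. A group of 4 Ces2 genes had 1 and 2, against 2 and 2. The Sult1c group of 3 genes and 6 entries was listed whole in every library. Promoters of 32 consecutive pairs within tandem groups could be compared. Their longest shared run had a median of 10 bases and ranged from 7 to 104. It reached 30 bases in 3 pairs, Ugt2b with Ugt2b37, Ugt2b37 with Ugt2b35 and Sult2a6 with Sult2a1, and in 0 of the 3 did the genes share a listing pattern. Across the 32 pairs, 8 shared a pattern.

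The promoters of members were poor in CpG. The CpG ratio is the number of CpG sites over that predicted from the base composition, here over the 300 bases from 250 before to 50 after the start. The promoter table held 75 of the 90 member symbols. Their median ratio was 0.298, with a range from 0 to 1.09. Over 13151 listed genes placed in RefSeq with a value, the median was 0.676. The table held a promoter for 81.2% of the listed symbols placed in RefSeq, but for 77.1% of all listed symbols. Genes of the same families with no entry were also poor in CpG, with a median of 0.227 over 36 promoters. Ces promoters had a median of 0.131 over 12 genes and Ugt promoters one of 0.155 over 8, and the Gst median was 0.488 over 15. Aldh1a2 (1.09), Ugt8 (1.01) and Akr7a2 (0.908) had high ratios and were in all 4 libraries. Listing in all 4 libraries did not require a CpG-rich promoter, since Akr1c19 and Ugt2b10 were in all 4 and had a ratio of 0. Members in all 4 libraries had a median ratio of 0.317 (32 genes), against 0.284 for members in 1 to 3 libraries (43 genes). Over all listed genes placed in RefSeq these medians were 0.725 and 0.561.

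Members with a promoter in the table fell into 3 ranges of the ratio. In all 4 libraries were 11 of 28 members below 0.2 (39.3%), 11 of 27 from 0.2 to below 0.5 (40.7%) and 10 of 20 at 0.5 or above. Of all listed genes placed in RefSeq, 46.2%, 57.4% and 69.2% in the same ranges were in all 4. Of these genes α-KG 2 listed 68.6%, 83.4% and 93.9%, and α-KG 1 listed 73.7%, 79.1% and 81.7%. Control 1 listed 73.0%, 74.5% and 76.3%, and control 2 listed 76.9%, 79.3% and 84.0%. Promoter coverage of all genes by listing in α-KG 2 is not given here. Whether CpG content bears on the members that only α-KG 2 lacked was not tested. These are descriptions with no test, since genes are not replicates, and the part of CpG content in how widely members were listed was not tested. For α-KG 2 against the other libraries no comparison by CpG ratio could be made among members. The table held a promoter for 22 of 22 members in 1 to 3 libraries that α-KG 2 listed, but for 21 of 29 (72.4%) that it did not list, so such a comparison is void.

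**Figure D4:**
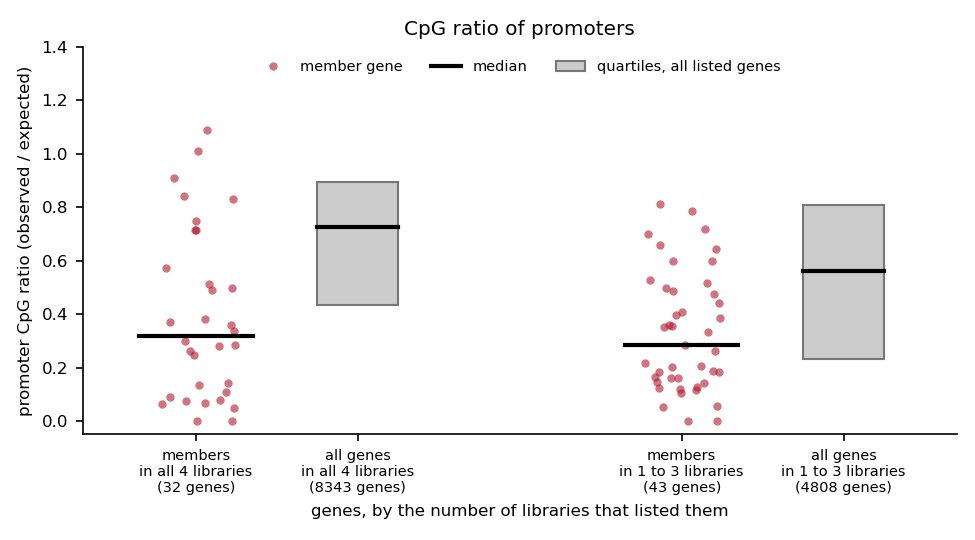
CpG ratio of the promoters of members in all 4 libraries and in 1 to 3 libraries (1 point per gene, line at the median), each beside the quartiles (box) and median (line) of all listed genes placed in RefSeq with the same number of libraries. The member medians of 0.317 and 0.284 lie below the medians of 0.725 and 0.561 of all listed genes.

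Response elements of detoxification genes were looked for in the member promoters. The antioxidant response element core TGACNNNGC, bound by Nrf2 with small Maf proteins, was found on either strand of 8 of 75 member promoters (10.7%), those of Aldh1a2, Aldh9a1, Ces2g, Gsta1, Gsta2, Gstm5, Gstm7 and Gstp1, and in 12.2% of 27457 RefSeq promoters. The xenobiotic response element core GCGTG, bound by the aryl hydrocarbon receptor, was in 22 of 75 (29.3%) and in 31.1% of all. The second motif holds a CpG, matches of both motifs can share bases, and a match is a description only.

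Of the other genes of the pathway, the regulators that had an entry were the most evenly listed. Of 16 regulator genes, 15 had an entry, and each of the 15 was in all 4 libraries, while 62.8% of all entries were. Among them were Ahr, the aryl hydrocarbon receptor, Nfe2l2, which encodes Nrf2, its inhibitor Keap1 and the xenobiotic receptor Nr1i2. Nr1i3 had no entry. Of 26 entries for cofactor supply and partner enzymes, 21 were listed in α-KG 1 and 22 in α-KG 2, against 20 in control 1 and 22 in control 2. In all 4 were 16 (61.5%), near the 62.8% of all entries. Those 16 included Gclc and Gclm, the subunits of the rate-limiting enzyme of glutathione synthesis, Papss1 and Papss2, which make the sulfate donor, and Ugp2, which makes UDP-glucose. Ugdh, which makes UDP-glucuronic acid, was in α-KG 2 and control 2. In this list 0 of 19 entries were lost (all entries 3.22%) and 1 of 17 was gained (all entries 4.48%), Ggt7. Ggt5, Ggt6, Tpmt, Nat1, Ephx1, Gpx2 and Gpx3 had no entry. The 12 transporters numbered 10 and 12 with α-KG, against 7 and 10 in control cells. In all 4 were 7 (58.3%), also near the share of all entries, among them the drug exporters Abcg2, Abcb1b and Abcc4. Of the transporters, 0 of 7 were lost and 1 of 10 was gained, the drug exporter Abcb1a. Lists of this length are too short to tell the lost and gained counts from the shares of all entries, and no test was made.

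The lists name many but not all genes of the families. RefSeq holds 136 protein-coding genes with these family names, and 96 of them (70.6%) had an entry under their current or an older symbol, against 77.4% of 20972 named protein-coding genes. By family this was 11 of 21 Ugt, 11 of 16 Sult, 20 of 26 Gst, 3 of 4 Mgst, 13 of 19 Ces, 15 of 23 Aldh, 16 of 19 Akr and 7 of 8 Fmo genes. No entry was found for Ugt1a1, Ugt1a6, Sult1a1, Sult1b1, Aldh4a1, Aldh16a1, Aldh18a1, Fmo1, Akr1b7 and Ces1c, among others. The Ugt1a genes share their last exons, so a peak there cannot be given to a single one of them. A missing entry may also mean that the annotation used for the lists had no such gene. The protein domain names in the lists matched the family names, with an aldehyde dehydrogenase domain in 16 of 16 Aldh entries, a sulfotransferase domain in 13 of 13 Sult entries and a mu-class domain in 6 Gst entries.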

How the data were processed

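The deposited values are gene lists: the authors' tables, which have no header, hold an Ensembl gene ID, a symbol and protein domain names for each gene with a peak and no other value. CASAVA, BWA, MACS2 and the build rn6 are listed in the submitters' processing notes with no role or version. The sources used here state neither the use of an input nor the rule that assigned peaks to genes.

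Lists were joined on the Ensembl ID with Python 3.11.15, pandas 2.3.3 and numpy 2.4.6. Group means were compared by exact permutation with scipy 1.17.1, and figures used matplotlib 3.10.9. The rules for lost and gained genes and the permutation test were tried, in a separate copy, on simulated data with known answers. No other step was tested in this way. RefSeq GRCr8 served only for names, gene order and promoter sequences, and it places 95.0% of entries with a symbol. Promoter comparisons below 80% coverage were taken as void. Coverage was counted over all symbols for members, but over symbols placed in RefSeq for all listed genes. Counted over all symbols, the listed genes would have 77.1% coverage and fall below this limit.

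The members, gene lists and tests were chosen with earlier results of these data known. Tandem groups and CpG ranges were chosen after values were seen. Every member may be named, but 1 is not reported here by name. Shared replicate numbers were not used as pairs: the labels tie them to no culture or batch. The planned comparison of protein sequences was not run.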

Additional observations from a re-analysis of the deposited data

How the results depend on the processing

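Without sequencing depth, peak height or position, a listed gene cannot be ranked and an unlisted gene has no detection limit, and 2 libraries a group allow no p below 0.333. Leaving out each library in turn gave 7 to 16 lost and 5 to 8 gained members and a difference in listed members from -8 to -3. Counts rise in such fits because fewer libraries must share a pattern. With a replicate block the difference was -5.5 (exact sign-flip p = 0.5), from differences of -4 in the first pair and -7 in the second. Deviations from the group means correlated by 0.0686 over members and 0.0478 over all entries between libraries of the same number, so the number was not treated as a pairing. Counting symbols gave a difference of -6.0.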
